A study of Mus musculus with 24 samples.

Results

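The response of the mouse heart to pressure overload was compared between an early and a late cohort. Transverse aortic constriction (TAC) is a surgical band around the aortic arch that makes the left ventricle pump against a higher pressure. The quantity described here is a difference of effects: the change from sham to TAC in hearts taken 8 weeks after surgery, minus the change from sham to TAC in hearts taken 2 weeks after surgery. A positive difference means that a transcript stood higher, relative to its own sham group, in the late cohort than in the early one. The comparison used 16 of the 24 libraries of the series, chosen by their labels, with 4 heart libraries in each of 4 groups. All hearts came from C57BL/6 mice and the labels name no mutation, transgene or drug. The TAC-LVH hearts were taken 2 weeks after TAC and the TAC-HF hearts 8 weeks after it, and the names mark a hypertrophy stage and a failure stage. Sham-LVH and Sham-HF are the sham-operated hearts named for each TAC group. Sex, age, the hour of collection and, for the shams, the time since surgery are absent from the labels, and no measure of pump function was used here. Because each time point is a cohort of its own with its own shams, cohort and time after surgery cannot be told apart.

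Under pressure overload cardiac myocytes enlarge and return to genes of the fetal heart, such as those for natriuretic peptides and skeletal actin, while fibroblasts lay down collagen. The healthy adult heart burns mainly fatty acids in its mitochondria. In overloaded and failing hearts genes of fatty acid oxidation and the respiratory chain are known to fall, and ketone bodies are known to become a larger part of the fuel.

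Total RNA was depleted of ribosomal RNA before sequencing. The 16 libraries held 17998364 to 30353572 estimated counts, of which 6560537 to 12932067 lay outside mitochondrially encoded genes. Values below are scaled counts (CPM, estimated counts relative to the scaled library size), so they compare a gene between libraries and not 1 gene with another. The first principal component, with 38.1% of the variance, separated TAC from sham libraries, and the second, with 13.1%, separated the cohorts. The share of counts from mitochondrially encoded genes changed by -7.92 percentage points from sham to TAC at 2 weeks and by -8.81 points at 8 weeks. That difference of effects was -0.89 points (exact two-sided permutation test within cohorts, p = 0.865, where 0.000408 is the smallest p possible). The cardiomyocyte genes Myh6, Tnnt2, Tnni3, Actc1, Ryr2, Pln, Actn2, Mb, Ckm and Ttn were all detected in every library, so the hearts held the defining markers of their label, and together they held between 37050 and 63090 CPM per library.

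Of 14463 genes tested, 196 responded differently in the 2 cohorts (edgeR quasi-likelihood test, adjusted p under 0.05), which is 1.36% of the genes tested. The late effect was higher for 135 genes (0.933%) and lower for 61 (0.422%). In the same fit 34.6% of all genes were called for TAC at 2 weeks (17.7% higher and 16.9% lower) and 29.0% for TAC at 8 weeks (14.5% higher and 14.5% lower). Most of the higher genes had been reduced early: 77 of 135 were called lower at 2 weeks and did not pass the test at 8 weeks, 22 were called lower at both times, and 12 were called lower at 2 weeks and higher at 8 weeks. A further 21 were called higher at 8 weeks alone and 3 at both times. Most of the lower genes had been raised early: 28 of 61 were called higher at 2 weeks and did not pass at 8 weeks, 13 were called higher at both, 6 were called higher and then lower, and 14 were called lower at 8 weeks alone. The median TAC effect of the 135 higher genes was -0.59 at 2 weeks and 0.09 at 8 weeks (log2), and that of the 61 lower genes was 0.76 and -0.21. These medians describe genes selected by the same fit and carry no test.

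**Figure D1:**
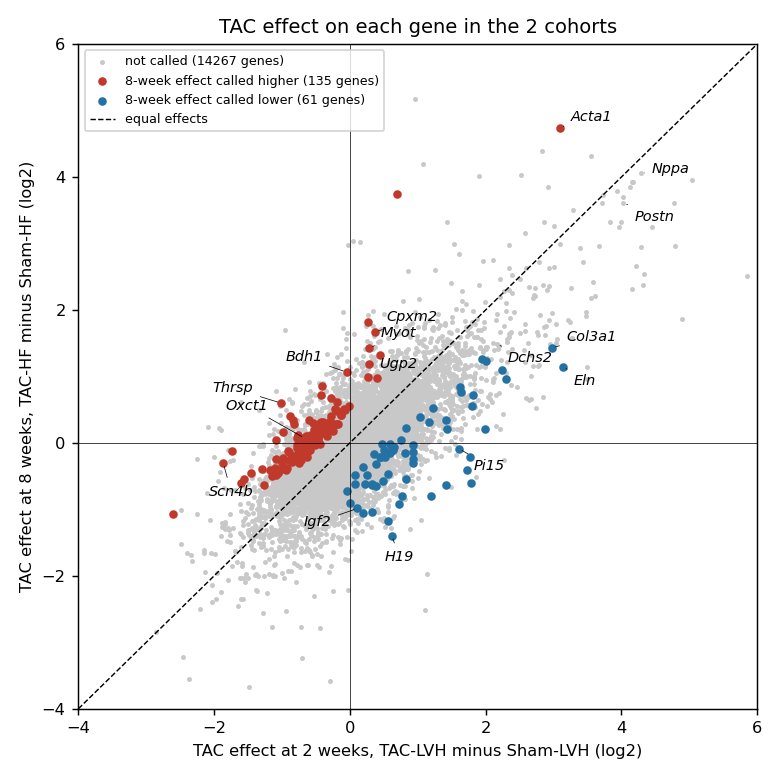
Each point is 1 of 14463 genes, with its TAC effect at 2 weeks on the horizontal axis and at 8 weeks on the vertical axis (log2, 4 TAC against 4 sham libraries each); 5 genes lie outside the plotted range. The 135 genes with a higher late effect (red) lie above the line of equal effects, mostly left of 0, and the 61 with a lower late effect (blue) lie below it, mostly right of 0.

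With 5001 genes called for TAC at 2 weeks and 4195 at 8 weeks, most TAC responses were not shown to differ between the cohorts. At an unadjusted p under 0.05, 2764 genes differed. The number of calls rested on single libraries. It was 654 without Sham-LVH replicate 1, 488 without TAC-LVH replicate 3 and 384 without TAC-HF replicate 2. Leaving out any 1 of the other 13 libraries gave 22 (without Sham-LVH replicate 2) to 159. All 196 genes kept the sign of their difference in each of the 16 fits that left out 1 library. They were selected for their difference in these same libraries, so kept signs, here and below, give no separate support. The 196 calls became 30 when library totals were used without normalization factors, which moved the median effect of all genes from 0.00 to 0.41 at 2 weeks and from 0.01 to 0.34 at 8 weeks, and the share of higher calls then went from 68.9% to 46.7%. Without both libraries at the ends of the first component, TAC-LVH replicate 1 and Sham-HF replicate 4, 1 higher and 1 lower gene were called and all 196 genes kept their sign, a setting chosen after seeing the data. DESeq2 called 416 higher and 205 lower genes, among them 191 of the 196. It gave no adjusted p for the rest, which were 5830432E09Rik, Evi2b, Tgif2, Egfros and Nr5a2. The 21 genes called in every one of the 16 fits were Bdh1, Taco1, Myot, Ugp2, Tmem143, Narf, 3425401B19Rik, Coq5, Gpam, Pdhx, Acta1, Flad1, Rhobtb1, Mrps23 and Cpxm2, which were higher, and H19, Bmp1, Pitpnm1, Gucy1a1, Arhgap18 and Cxcr4, which were lower. Without normalization factors 14 of these 21 were still called, and Myot, Ugp2, Narf, Coq5, Acta1, Flad1 and Mrps23 were not.

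Both called genes of ketone body use had a higher late effect. Bdh1 (ENSMUSG00000046598) encodes the mitochondrial dehydrogenase that interconverts the ketone bodies beta-hydroxybutyrate and acetoacetate. Its 4 libraries per group stood at 35.2, 35.8, 31.4 and 30.9 CPM in Sham-LVH, 29.5, 32.5, 35.4 and 31.4 in TAC-LVH, 39.2, 26.1, 33.6 and 31.7 in Sham-HF and 73.2, 59.7, 72.4 and 67.9 in TAC-HF. Every TAC-HF library lay above every other library, and the other 3 groups overlapped. The TAC effect on Bdh1 was -0.05 at 2 weeks (adjusted p = 0.755) and 1.06 at 8 weeks, a difference of 1.113 (SE 0.149, 95% interval 0.80 to 1.43; edgeR adjusted p = 0.00243), or a 2.16-fold higher late effect. It was called in all 16 fits that left out 1 library, with adjusted p at most 0.0126. Oxct1 (ENSMUSG00000022186) encodes the CoA transferase that activates acetoacetate for burning. It stood at 429, 557, 510.4 and 502 CPM in Sham-LVH, 272, 310.4, 350.2 and 331 in TAC-LVH, 420.1, 446, 436 and 396 in Sham-HF and 459, 409, 470.3 and 440.2 in TAC-HF. Here the low group was TAC-LVH, below all other libraries, and the sham groups and TAC-HF overlapped. Oxct1 fell at 2 weeks (-0.66) and was 0.07 at 8 weeks, a difference of 0.73 (SE 0.138; edgeR adjusted p = 0.0208), which lost its call in 2 of the 16 fits (adjusted p = 0.0549 without Sham-LVH replicate 2 and 0.0501 without Sham-HF replicate 4) and without normalization factors (adjusted p = 0.0650). A positive difference thus came with a rise at 8 weeks in Bdh1 and with a fall at 2 weeks in Oxct1. The list of branched-chain amino acid and ketone genes had these 2 of 21 tested genes called, beside 0.933% called higher over all genes tested. In it 20 of 21 had a positive difference, with a median of 0.41, beside 48.5% positive and a median of -0.01 over all genes. Genes of a list were measured in the same libraries, so counts of signs or calls within lists carry no test.

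Many genes of mitochondrial energy supply fell at 2 weeks and fewer passed the test at 8 weeks, while few passed the test of the difference itself. Coq5 (ENSMUSG00000041733), a methyltransferase in the synthesis of coenzyme Q, the mobile electron carrier of the respiratory chain, stood at 33.1, 37.2, 40.3 and 36.9 CPM in Sham-LVH, 19.2, 22.4, 24.5 and 22.6 in TAC-LVH, 35.0, 36.2, 39.8 and 35.9 in Sham-HF and 35.9, 33.3, 36.5 and 37.1 in TAC-HF. The TAC-LVH libraries lay below all 12 others, which overlapped. The effect was -0.73 at 2 weeks and -0.04 at 8 weeks, a difference of 0.69 (SE 0.118; edgeR adjusted p = 0.0148), called in all 16 fits. Other coenzyme Q genes were chosen after their values were seen: of 13 tested, 5 were called higher and all 13 had a positive difference (median 0.48). The shares over all genes were 0.933% called higher and 48.5% positive. The other called members were Coq9 (0.71), a lipid-binding partner of the synthesis complex, Coq10a (0.65), which binds coenzyme Q, Coq6 (0.63), a monooxygenase, and Coq2 (0.52), which attaches the isoprenoid tail. They kept their calls in 11, 3, 3 and 5 of the 16 fits, in that order, with adjusted p up to 0.115 without TAC-LVH replicate 1 for Coq6. Without normalization factors all 5 coenzyme Q calls ended (adjusted p = 0.0650 to 0.149, and 0.0676 for Coq5), with a list median of 0.40.

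Taco1 (ENSMUSG00000001983), needed for translation of the mitochondrially encoded subunit 1 of cytochrome c oxidase, had 15.0, 16.1, 17.6 and 16.9 CPM in Sham-LVH, 8.02, 8.99, 10.6 and 10.5 in TAC-LVH, 13.1, 13.1, 11.7 and 13.4 in Sham-HF and 13.6, 14.3, 12.6 and 13.3 in TAC-HF. The sham groups did not overlap, and part of the difference lay between them: Sham-HF minus Sham-LVH was -0.36 (edgeR adjusted p = 0.0310), while TAC-HF exceeded TAC-LVH by 0.49. The difference of TAC effects was 0.85 (SE 0.135; edgeR adjusted p = 0.0133) and was called in all 16 fits. Pdhx (ENSMUSG00000010914), the component that binds the last enzyme of the pyruvate dehydrogenase complex, had 42.9, 54.8, 58.0 and 48.3 CPM in Sham-LVH, 29.2, 28.5, 42.0 and 34.1 in TAC-LVH, 41.3, 38.5, 41.8 and 37.1 in Sham-HF and 52.3, 43.5, 56.0 and 50.1 in TAC-HF. In neither cohort did TAC and sham overlap, and the direction turned: the effect was -0.61 at 2 weeks and 0.35 at 8 weeks, a difference of 0.95 (SE 0.166; edgeR adjusted p = 0.0148), called in all 16 fits. The sham groups of Pdhx did not overlap either, and Sham-HF minus Sham-LVH was -0.36 (edgeR adjusted p = 0.0726). Its mean in TAC-HF, 50.45 CPM, was near that in Sham-LVH, 51.01 CPM, and TAC-HF exceeded TAC-LVH by 0.59.

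Among the genes of the tricarboxylic acid cycle and pyruvate entry, 2 of 25 were called, both acyltransferase cores of large complexes: Dlat of pyruvate dehydrogenase (0.55, edgeR adjusted p = 0.0370) and Dlst of 2-oxoglutarate dehydrogenase (0.47, edgeR adjusted p = 0.0464). All 25 had a positive difference, with a median of 0.43. At 2 weeks all 25 were called lower, at 8 weeks 12. Of 67 nuclear genes of the respiratory chain, 66 had a positive difference (median 0.51), but only Ndufa10 of complex I passed the test (0.59, edgeR adjusted p = 0.0458). For both lists the shares over all genes tested were 48.5% with a positive difference and 0.933% called higher. The median effect of the respiratory chain list was -0.59 at 2 weeks, with 55 genes called lower, and -0.08 at 8 weeks, with 12. Dlat, Dlst and Ndufa10 kept their calls in 4, 3 and 3 of 16 fits, with adjusted p up to 0.105 without TAC-LVH replicate 1 for Dlst. All 3 calls ended without normalization factors (adjusted p = 0.128 for Ndufa10, 0.156 for Dlat and 0.193 for Dlst), where the medians were 0.35 for the cycle and 0.44 for the chain. The 15 mitochondrially encoded genes were closer together in the cohorts, with no call and a median difference of 0.19. Their median effects were -0.67 and -0.54. Regulators of mitochondrial genes had no call among 21 and a median difference of 0.17.

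Fatty acid oxidation genes were called lower in 33 of 36 cases at 2 weeks (median effect -0.98) and in 28 at 8 weeks (median -0.52). The difference was positive for 32 of them (median 0.46) and passed the test for 1, beside 48.5% positive and 0.933% called higher over all genes. That 1 gene, Dgat2, encodes the enzyme of the last step of triglyceride synthesis, not a step of oxidation. It had 96.9, 110.4, 129.5 and 108 CPM in Sham-LVH, 33.8, 52.5, 53.5 and 42.0 in TAC-LVH, 86.3, 96.6, 97.7 and 98.4 in Sham-HF and 67.4, 69.5, 88.2 and 64.4 in TAC-HF, a difference of 0.90 (SE 0.184; edgeR adjusted p = 0.0274). Its TAC-LVH libraries were the lowest of the 16, and TAC and sham overlapped only at 8 weeks. Outside the list, 2 acyl-CoA dehydrogenase genes chosen after their values were seen were called higher. These were Acad11 (0.78, edgeR adjusted p = 0.0208, 15 of 16 fits) and Acad12 (0.57, edgeR adjusted p = 0.0286, 8 of 16 fits). Without normalization factors Acad11 kept its call (adjusted p = 0.0379) and Acad12 lost it (adjusted p = 0.128). Gpam (ENSMUSG00000024978) encodes a mitochondrial acyltransferase for the first step of glycerolipid synthesis. It had 88.3, 116, 91.0 and 93.7 CPM in Sham-LVH, 59.9, 69.0, 67.7 and 71.5 in TAC-LVH, 77.5, 97.5, 82.1 and 100.3 in Sham-HF and 118, 97.5, 113 and 113 in TAC-HF. It fell at 2 weeks (-0.54) and rose at 8 weeks (0.30), a difference of 0.84 (SE 0.148; edgeR adjusted p = 0.0148). The groups did not overlap at 2 weeks and did at 8 weeks.

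Thrsp, a nuclear protein tied to lipid synthesis in liver and fat, and Gpd1, which makes glycerol 3-phosphate, had differences of 1.61 and 1.189 (edgeR adjusted p = 0.0216 and 0.0274). Both also differed between the sham groups, by -0.74 and -0.59. With Dgat2 and Gpam they made up the 4 called of 16 glycerolipid synthesis genes, beside 0.933% called higher over all genes. That list was put together, and Gpd1 was chosen, after values were seen. Gpam was called in all 16 fits, Thrsp in 14, Dgat2 in 10 and Gpd1 in 8, with adjusted p up to 0.0697 without TAC-LVH replicate 1 for Gpd1. Without normalization factors Gpd1 lost its call (adjusted p = 0.0650).

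Of Ugp2 and the 4 called genes of the glycolysis, glucose transport and glycogen list, Ugp2 rose at 8 weeks and the others fell at 2 weeks. Further genes outside the list were called higher, among them Pgm1 (0.55, edgeR adjusted p = 0.0370, 5 of 16 fits) and Ppp1r3a (0.75, edgeR adjusted p = 0.0335, 4 of 16 fits). These were chosen after their values were seen, and both calls ended without normalization factors (adjusted p = 0.138 and 0.103). Ugp2 (ENSMUSG00000001891), which is in none of the fixed lists, makes the UDP-glucose from which glycogen is built. It had 101, 140.4, 124 and 128 CPM in Sham-LVH, 142, 142, 151 and 162 in TAC-LVH, 116, 97.5, 112 and 96.0 in Sham-HF and 221, 201, 262 and 273 in TAC-HF. All TAC-HF libraries lay above all others. The effect was 0.27 at 2 weeks (adjusted p = 0.0630) and 1.186 at 8 weeks, a difference of 0.91 (SE 0.158; edgeR adjusted p = 0.0148), called in all 16 fits. Of 29 tested genes of glycolysis, glucose transport and glycogen, 4 were called higher (0.933% of all genes) and none lower (median 0.33). These were the muscle enolase Eno3 (0.63), the phosphorylase kinase subunit Phka1 (0.60), the insulin-responsive glucose transporter Slc2a4 (0.58) and muscle glycogen phosphorylase Pygm (0.54), with edgeR adjusted p between 0.0423 and 0.0499. Pygm went from a mean of 349.6 ± 13.3 CPM (SD, n = 4) in Sham-LVH to 182 ± 20.8 in TAC-LVH, and from 409.7 ± 18.8 in Sham-HF to 309.8 ± 14.2 in TAC-HF. All 4 fell at 2 weeks, with effects from -0.50 for Phka1 to -1.03 for Eno3. These 4 calls held in only 2 to 4 of the 16 fits, with adjusted p up to 0.105 without TAC-LVH replicate 1 for Eno3. Without normalization factors all 4 ended (adjusted p = 0.103 to 0.180), as did that of Ugp2 (difference 0.82, adjusted p = 0.0650).

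**Figure D2:**
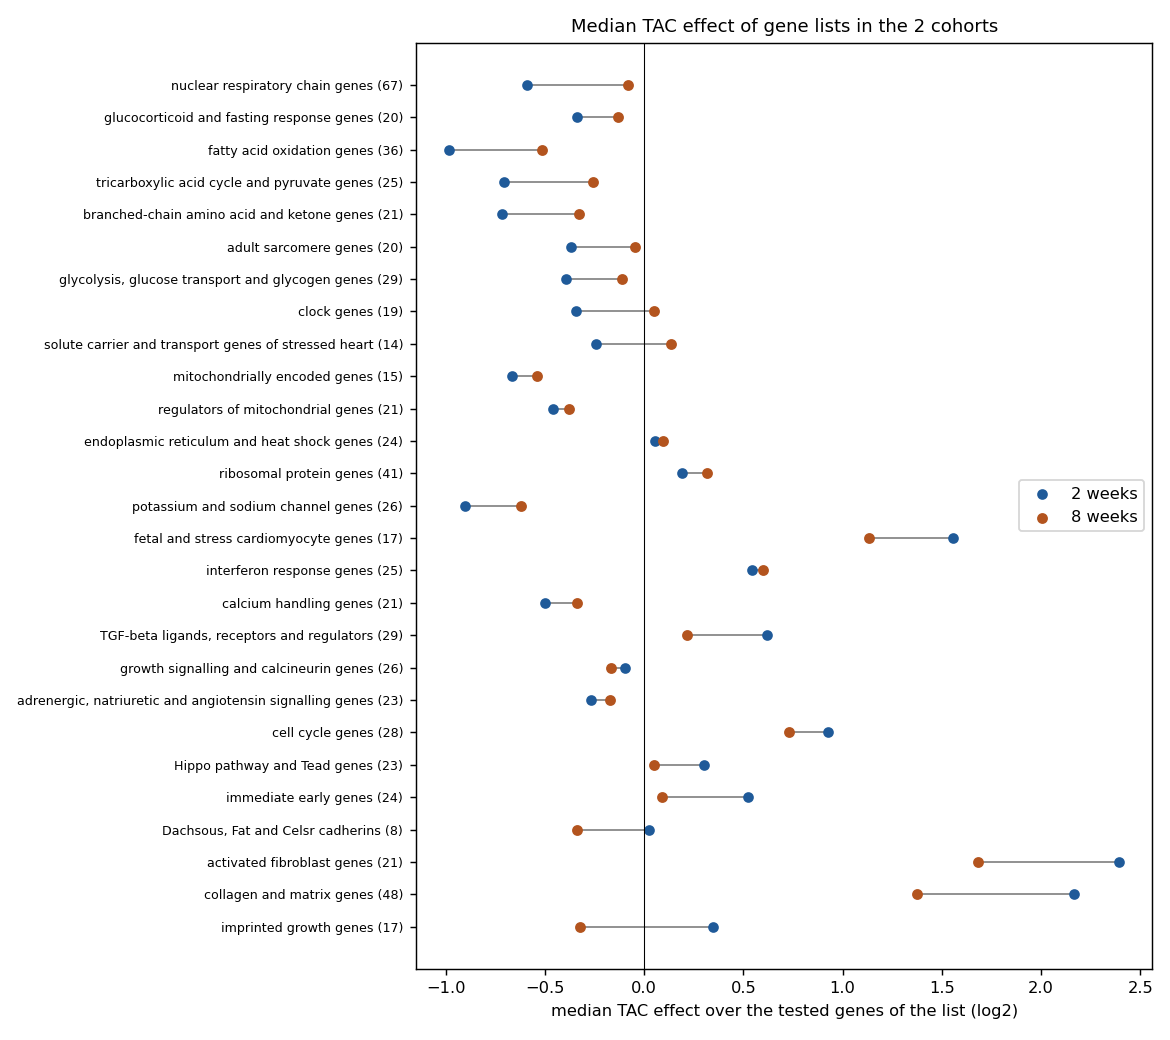
Median TAC effect (log2) over the tested genes of 27 process lists at 2 weeks (blue) and 8 weeks (orange), with the number of tested genes in brackets and lists sorted by the median difference of effects. Lists of mitochondrial energy supply lie left of 0 and closer to it at 8 weeks, and the collagen and matrix list lies at 2.17 at 2 weeks and 1.38 at 8 weeks.

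The general level of cardiomyocyte transcripts moved with these energy genes. The 10 cardiomyocyte markers summed to 59840 ± 3063 CPM in Sham-LVH, 41700 ± 3561 in TAC-LVH, 61270 ± 1833 in Sham-HF and 50270 ± 3905 in TAC-HF (SD, n = 4). All 10 were called lower at 2 weeks and 4 at 8 weeks. None was called in the difference of effects, whose median over the list was 0.34. Their part in the differences of the energy genes was not tested. In bulk hearts, fewer cells of a type and less RNA per cell cannot be told apart.

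Among the called genes of the fetal, sarcomere, calcium and channel lists, skeletal actin had the largest difference. Acta1 (ENSMUSG00000031972), an actin of skeletal muscle and of the fetal and overloaded heart, had 64.2, 79.5, 96.4 and 53.2 CPM in Sham-LVH, 593, 604, 627 and 677 in TAC-LVH, 70.5, 41.8, 44.5 and 35.8 in Sham-HF and 1240, 1114, 1289 and 1508 in TAC-HF. TAC and sham libraries were far apart in both cohorts, and every TAC-HF library exceeded every TAC-LVH library. Acta1 rose by 3.09 at 2 weeks and by 4.74 at 8 weeks, a difference of 1.65 (SE 0.264, 95% interval 1.09 to 2.20; edgeR adjusted p = 0.0148), called in all 16 fits. Without normalization factors it was 1.55 and missed the threshold (adjusted p = 0.0568). The sham groups overlapped and differed by -0.60 (adjusted p = 0.0656). Acta1 shares most of its coding sequence with Actc1 and Acta2, and the sources used here do not give how reads were split among them. The promoters of Acta1, which had the larger late effect, and of the collagen gene Col3a1, which had the smaller, are shown as examples. Both come from RefSeq on GRCm38.p6, run from 250 bases before to 50 after the listed transcript start, 5′ to 3′ on the gene's strand, and capitals mark motif matches. The Acta1 window lies at chr8:123894726-123895025 on the minus strand and the Col3a1 window at chr1:45311288-45311587 on the plus strand.
Acta1: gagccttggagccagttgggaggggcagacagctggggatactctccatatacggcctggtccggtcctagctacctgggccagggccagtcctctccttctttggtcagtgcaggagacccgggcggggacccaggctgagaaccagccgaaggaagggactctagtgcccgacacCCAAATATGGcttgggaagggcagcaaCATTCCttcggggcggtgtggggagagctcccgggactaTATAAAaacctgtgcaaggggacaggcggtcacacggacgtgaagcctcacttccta
Col3a1: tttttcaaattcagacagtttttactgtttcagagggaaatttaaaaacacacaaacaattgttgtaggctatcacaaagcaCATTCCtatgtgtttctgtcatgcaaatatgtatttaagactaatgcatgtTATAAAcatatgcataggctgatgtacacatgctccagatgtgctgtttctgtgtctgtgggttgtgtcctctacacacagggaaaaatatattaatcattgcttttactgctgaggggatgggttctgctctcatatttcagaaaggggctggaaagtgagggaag
From the 5′ end, the capitals in Acta1 mark a CArG box, which serum response factor binds, an MCAT element (CATTCC), which TEAD factors bind, and the letters of a TATA box (TATAAA). Those in Col3a1 mark an MCAT element and TATAAA letters. Matches were found by letters alone, and the distance to the start was not used, so neither TATAAA run is shown to be a working TATA box. Relative to the listed start they begin at -73, -46 and -7 in Acta1 and at -168 and -117 in Col3a1. Searched on both strands, the MCAT letters occurred in 12.1% of 10427 promoters of tested genes, in 11.6% of 112 promoters of genes with a higher late effect and in 14.3% of 42 with a lower one. The TATAAA letters occurred in 7.31%, 9.82% and 14.3%, and the CArG box in 1.3%, 3.57% and 0.0%, of the same promoters. Other motifs searched were AAGGTCA (an ERR element, in 3.05% of all), CACGTG (an E-box, 10.1%), TGANTCA (an AP-1 element, 4.83%), the cyclic AMP response element (3.22%) and the NRF1 element (2.02%), with no match in these 2 windows. A match is a run of letters and does not show that a factor binds, and none of the matches overlap in either window.

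Myot (ENSMUSG00000024471) encodes myotilin, a protein of the Z disc that anchors actin filaments. It had 14.8, 22.6, 22.8 and 16.6 CPM in Sham-LVH, 26.5, 22.4, 21.1 and 23.4 in TAC-LVH, 28.9, 29.6, 27.9 and 22.5 in Sham-HF and 86.5, 59.2, 76.6 and 70.04 in TAC-HF. The groups overlapped at 2 weeks and were apart at 8 weeks. Its effect was 0.29 at 2 weeks (adjusted p = 0.122) and 1.42 at 8 weeks, a difference of 1.136 (SE 0.196; edgeR adjusted p = 0.0148), called in all 16 fits but not without normalization factors (1.04, adjusted p = 0.0753). Sham-HF exceeded Sham-LVH by 0.51 (edgeR adjusted p = 0.0387), in the direction that narrows the difference. Cmya5, a large cytoskeletal protein near the Z disc, was the other called gene of 20 sarcomere genes (0.55, edgeR adjusted p = 0.0464). Its effects were -0.93 at 2 weeks (adjusted p = 3.75e-07) and -0.38 at 8 weeks (adjusted p = 0.00477). The sarcomere list had 19 of 20 differences above 0, beside 48.5% of all genes, and a median of 0.33.

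Scn4b (ENSMUSG00000046480), an auxiliary subunit of cardiac sodium channels, had 19.9, 15.3, 15.0 and 24.6 CPM in Sham-LVH, 3.01, 5.54, 7.60 and 4.55 in TAC-LVH, 15.8, 25.98, 18.4 and 17.1 in Sham-HF and 16.9, 17.1, 14.4 and 14.3 in TAC-HF. It fell in TAC-LVH, where no library reached the lowest sham, while TAC-HF overlapped its sham. The difference was 1.56 (SE 0.323; edgeR adjusted p = 0.0348), the only call among 26 potassium and sodium channel genes, whose median difference was 0.09. In the calcium handling list the only call of 21 was Smyd1 (0.58, edgeR adjusted p = 0.0355), a muscle methyltransferase and not itself a calcium transporter. Its TAC effect was -0.61 at 2 weeks and -0.03 at 8 weeks. The list's median difference was -0.01. Outside these lists, the potassium channel gene Kcnn1 (0.85, edgeR adjusted p = 0.0347) and the intracellular cation channel gene Tmem38a (0.53, edgeR adjusted p = 0.0370) were called higher. Both were chosen after their values were seen and kept their calls in 5 of 16 fits. Without normalization factors both calls ended (adjusted p = 0.0919 and 0.147). Calls held in 5 of 16 fits for Scn4b (adjusted p = 0.0722 without TAC-LVH replicate 4), 4 for Smyd1 (adjusted p = 0.0814 without TAC-LVH replicate 1) and 3 for Cmya5 (adjusted p = 0.106 without Sham-LVH replicate 2). Smyd1 and Cmya5 also lost theirs without normalization factors (adjusted p = 0.136 for each).

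The classical load markers were not shown to respond differently. Nppa, the atrial natriuretic peptide gene, rose by 4.29 at 2 weeks and 4.05 at 8 weeks, a difference of -0.23 (95% interval -0.88 to 0.41; edgeR adjusted p = 0.722). Nppb, the B-type peptide gene, had a difference of -0.52 (-2.01 to 0.97; edgeR adjusted p = 0.727). Its Sham-HF libraries held 188, 28.7, 75.8 and 32.3 CPM, and without the first of them the difference was 0.31. Myh7, the slow myosin gene, had a difference of -1.16 (-2.31 to 0.00; edgeR adjusted p = 0.262), and Myh6, the fast adult myosin gene, 0.24 (-0.07 to 0.54; edgeR adjusted p = 0.399). Mhrt is transcribed antisense to Myh7 and no strand setting is given, so reads of the pair cannot be told apart. Ankrd1, a stress-induced titin-binding protein gene, had 0.77 (edgeR adjusted p = 0.0575), and its Sham-HF minus Sham-LVH difference was -0.62 (adjusted p = 0.0150). Gdf15, a stress cytokine, rose from a mean of 0.0985 to 1.25 CPM at 2 weeks and from 0.353 to 7.29 at 8 weeks, a difference of 0.76 (-1.27 to 2.79; edgeR adjusted p = 0.708) that became -0.40 without Sham-LVH replicate 1. Of 17 fetal and stress genes, Acta1 alone was called, and the list's median was 0.06, with a range from -0.17 without TAC-HF replicate 2 to 0.31 without Sham-HF replicate 1.

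Most collagen and matrix genes rose in both cohorts, and all that passed the test of the difference had the lower effect at 8 weeks. Of 48 collagen and matrix genes, 46 were called higher at 2 weeks (median effect 2.17) and 39 at 8 weeks (median 1.38). In the difference, 7 were called lower, none higher, and only 2 lay above 0 (median -0.80). Among all genes tested 0.422% were called lower and 48.5% lay above 0. Col3a1 (ENSMUSG00000026043), a fibrillar collagen of scars and vessels whose promoter is printed above, had 84.3, 108, 100.4 and 157 CPM in Sham-LVH, 1159, 726, 630 and 1033 in TAC-LVH, 117, 123, 96.3 and 82.3 in Sham-HF and 267, 335, 202 and 326 in TAC-HF. TAC exceeded sham in both cohorts without overlap, and the lowest TAC-LVH library was above the highest TAC-HF library. Its effect was 2.98 at 2 weeks and 1.43 at 8 weeks, a difference of -1.55 (SE 0.319; edgeR adjusted p = 0.0341). Eln, elastin, had 1.87, 1.92, 2.25 and 4.39 CPM in Sham-LVH, 31.4, 17.9, 15.6 and 28.3 in TAC-LVH, 4.43, 3.57, 3.58 and 2.82 in Sham-HF and 9.90, 9.93, 4.79 and 7.59 in TAC-HF, again with all TAC-LVH above all TAC-HF libraries, and a difference of -1.99 (SE 0.453; edgeR adjusted p = 0.0488). Col5a3, which co-assembles into fibrils, had a difference of -1.98 (edgeR adjusted p = 0.0372) that lay mostly between the shams: the means were 5.74 CPM in Sham-LVH, 19.8 in TAC-LVH, 18.4 in Sham-HF and 15.8 in TAC-HF, and the sham groups differed by 1.66 (edgeR adjusted p = 0.00783). The other called members were Col18a1 of basement membranes (-1.09), Col6a1 of microfibrils (-0.86), the gelatinase Mmp2 (-0.77) and the collagen-binding protein Sparc (-0.68), with edgeR adjusted p between 0.0433 and 0.0497. Of these, Col6a1 and Sparc were chosen after their values were seen. The matrix calls were sensitive to single libraries: Col3a1 and Col18a1 kept theirs in 6 of 16 fits and the other 5 in 4, with adjusted p up to 0.117 without Sham-LVH replicate 3 for Eln and 0.0824 without TAC-LVH replicate 1 for Col3a1. All 7 lost it without normalization factors, where Col3a1 had a difference of -1.67 (adjusted p = 0.103) and the list median was -0.92.

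Bmp1 (ENSMUSG00000022098), the protease that trims the C-terminal end of procollagens so that fibrils can form, was the steadiest of the matrix-related genes. It had 10.7, 10.3, 11.0 and 11.1 CPM in Sham-LVH, 26.8, 24.3, 21.0 and 25 in TAC-LVH, 12.6, 11.2, 12.0 and 12.4 in Sham-HF and 13.2, 16.5, 14.0 and 15.9 in TAC-HF. Both TAC groups lay above their shams without overlap, TAC-LVH by 1.168 and TAC-HF by 0.31, and the shams, which did not overlap either, differed by 0.16 (adjusted p = 0.338). The difference was -0.86 (SE 0.129; edgeR adjusted p = 0.00876), called in all 16 fits with adjusted p at most 0.0335. Adamts12, a secreted metalloprotease, had a difference of -1.78 (edgeR adjusted p = 0.0286) and kept its call in 7 fits (adjusted p = 0.0770 without Sham-LVH replicate 2). Adamts5 (-0.66) and Adamts15 (-0.96), proteases of proteoglycans, and the laminins Lamb1 (-0.71) and Lama4 (-0.62) were also called lower and were chosen after their values were seen. They kept their calls in 4 to 6 fits, with adjusted p up to 0.0935 without Sham-LVH replicate 2 for Lama4. Without normalization factors these 4 and Adamts12 lost their calls (adjusted p = 0.0568 to 0.0719). Of 16 tested Adamts genes, 3 were called lower, and of 10 laminin genes 2, beside 0.422% of all genes.

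Col1a1, the main fibrillar collagen gene, had a difference of -1.53 (95% interval -2.46 to -0.60) that did not pass (edgeR adjusted p = 0.0886). Postn, the periostin gene of activated fibroblasts, had -0.42 (-1.19 to 0.36; edgeR adjusted p = 0.566). Among 21 activated fibroblast genes none was called, with a median difference of -0.48, and 19 were called higher at 2 weeks and 18 at 8 weeks. Genes of resident fibroblasts, as summed markers, stood at 1136 ± 147 CPM in Sham-LVH, 1594 ± 189 in TAC-LVH, 1040 ± 114 in Sham-HF and 1419 ± 80.6 in TAC-HF (SD, n = 4), all 13 of 13 tested and none at 0. The part of fibroblast number in the matrix differences was not tested. The TGF-beta list had no call among 29 genes and a median difference of -0.07.

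The smallest p of all genes belonged to H19 (ENSMUSG00000000031), a maternally expressed imprinted long noncoding RNA of growing tissue on chromosome 7. It had 4.93, 4.60, 4.31 and 5.13 CPM in Sham-LVH, 7.33, 6.14, 8.91 and 6.79 in TAC-LVH, 9.41, 6.87, 7.59 and 9.91 in Sham-HF and 4.37, 2.69, 3.17 and 2.69 in TAC-HF. The TAC-LVH libraries were all above their shams and the TAC-HF libraries all below theirs. H19 rose by 0.62 at 2 weeks (adjusted p = 0.00357) and its effect at 8 weeks was -1.40, a difference of -2.01 (SE 0.223, 95% interval -2.48 to -1.55; edgeR adjusted p = 0.000245). The call held in all 16 fits, with differences from -2.18 to -1.89 and adjusted p at most 0.00146. The sham groups did not overlap either: Sham-HF exceeded Sham-LVH by 0.82 (edgeR adjusted p = 0.00562), and TAC-HF minus TAC-LVH was -1.19. Igf2 (ENSMUSG00000048583), the paternally expressed growth factor gene beside H19, had 9.48, 6.24, 7.15 and 10.0 CPM in Sham-LVH, 10.6, 8.15, 9.60 and 7.50 in TAC-LVH, 10.4, 10.1, 7.96 and 8.97 in Sham-HF and 4.82, 5.62, 4.26 and 4.23 in TAC-HF. Its groups overlapped at 2 weeks, and at 8 weeks all TAC libraries were below all shams. The difference was -1.10 (SE 0.214; edgeR adjusted p = 0.0219), with sham groups that overlapped (0.18, adjusted p = 0.500), and it lost its call in 2 of 16 fits (adjusted p = 0.0549 without Sham-LVH replicate 2 and 0.0523 without TAC-HF replicate 4). These were the 2 calls among 17 imprinted growth genes, of which 3 had a difference above 0 (median -0.82). Among all genes tested 0.422% were called lower and 48.5% lay above 0. Rian and Meg3, maternally expressed noncoding RNAs of another imprinted cluster, had differences of -1.16 and -1.003 that did not pass (edgeR adjusted p = 0.0575 and 0.112); Meg3 was chosen after its value was seen.

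Both subunits of the main form of soluble guanylate cyclase, the receptor through which nitric oxide raises cyclic GMP, had a lower late effect. Gucy1a1 (ENSMUSG00000033910) had 15.4, 13.9, 14.2 and 14.4 CPM in Sham-LVH, 21.0, 22.4, 22.8 and 22.7 in TAC-LVH, 13.0, 12.4, 13.1 and 13.7 in Sham-HF and 12.9, 13.3, 12.8 and 9.69 in TAC-HF. The TAC-LVH libraries were the 4 highest of the 16. The effect was 0.62 at 2 weeks and -0.10 at 8 weeks, a difference of -0.72 (SE 0.129; edgeR adjusted p = 0.0172), called in all 16 fits. Gucy1b1 (ENSMUSG00000028005), chosen after its value was seen, had 12.4, 10.2, 11.9 and 10.1 CPM in Sham-LVH, 16.0, 16.1, 15.8 and 15.7 in TAC-LVH, 11.0, 9.09, 7.91 and 10.0 in Sham-HF and 9.04, 7.89, 8.22 and 7.78 in TAC-HF. Its pattern was alike, with TAC-LVH above all other libraries and a difference of -0.72 (SE 0.144; edgeR adjusted p = 0.0243), kept in 12 of 16 fits (adjusted p = 0.0601 without Sham-LVH replicate 2) and lost without normalization factors (adjusted p = 0.0568). Pde5a, which breaks cyclic GMP down, had -0.63 and did not pass (edgeR adjusted p = 0.0915). Summed endothelial markers stood at 728, 841, 760.4 and 789 CPM, and summed smooth muscle and pericyte markers at 1338, 1510, 1335 and 1484 CPM, in Sham-LVH, TAC-LVH, Sham-HF and TAC-HF. Neither list had a call in the difference, and their part was not tested.

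Further named genes with a lower late effect belong to no fixed list. Arhgap18 (ENSMUSG00000039031), a regulator of the actin cytoskeleton, had 13.7, 13.1, 8.24 and 10.5 CPM in Sham-LVH, 21.4, 16.0, 22.8 and 19.9 in TAC-LVH, 12.2, 12.7, 11.4 and 14.5 in Sham-HF and 10.4, 8.55, 9.98 and 5.95 in TAC-HF. TAC was above sham at 2 weeks and below it at 8 weeks, without overlap, and the difference was -1.37 (SE 0.240; edgeR adjusted p = 0.0172), called in all 16 fits. Its relative Arhgap28, at means of 2.03, 3.03, 2.43 and 1.08 CPM in the same order of groups, had -1.74 (edgeR adjusted p = 0.0225). Marcks, a membrane and actin protein regulated by protein kinase C, rose at both times (1.218 and 0.53), with a difference of -0.69 (edgeR adjusted p = 0.0208). Tgfb1i1, a focal adhesion protein, had -1.17 (edgeR adjusted p = 0.0216), with 0.76 between the shams and -0.40 between the TAC groups. Pi15, a secreted peptidase inhibitor, stood at 11.0, 8.87, 8.64 and 10.9 CPM in TAC-LVH and at 2.23, 4.72, 3.12 and 3.40 in TAC-HF and had -1.69 (edgeR adjusted p = 0.0216). Leaving out Sham-LVH replicate 2 ended the calls of Marcks, Tgfb1i1, Pi15 and Arhgap28 (adjusted p = 0.0549 for each). Tgfb1i1 kept its call in the other 15 fits, Marcks in 14, Pi15 in 13 and Arhgap28 in 12, the losses coming without Sham-LVH replicate 3, Sham-HF replicate 3 or 4 or TAC-HF replicate 4. Marcks also lost its call without normalization factors (adjusted p = 0.0568). Pitpnm1 (ENSMUSG00000024851), a phosphatidylinositol transfer protein, had a difference of -0.90 (edgeR adjusted p = 0.0148) with no effect shown at 2 weeks (-0.01), -0.90 at 8 weeks and 0.45 between the shams, and was called in all 16 fits.

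Cxcr4 and Ms4a7 were the called genes with known roles in leukocytes that the naming rule gave. Cxcr4 (ENSMUSG00000045382), a chemokine receptor of leukocytes and other migrating cells, had 2.39, 1.46, 2.33 and 2.05 CPM in Sham-LVH, 6.10, 5.70, 5.71 and 5.17 in TAC-LVH, 3.56, 2.23, 3.48 and 3.89 in Sham-HF and 4.06, 3.66, 3.65 and 3.81 in TAC-HF. TAC-LVH was apart from all other groups, and TAC-HF overlapped its sham. The difference was -1.22 (SE 0.226; edgeR adjusted p = 0.0183), called in all 16 fits, and the shams differed by 0.64 (edgeR adjusted p = 0.0301). Ms4a7, a macrophage membrane protein gene, had 1.01, 1.69, 1.55 and 1.86 CPM in Sham-LVH, 9.48, 7.23, 6.40 and 6.91 in TAC-LVH, 1.121, 0.974, 1.00 and 1.38 in Sham-HF and 2.33, 1.87, 2.90 and 1.61 in TAC-HF. It rose at both times, and the difference was -1.34 (SE 0.311; edgeR adjusted p = 0.0423), kept in 5 of 16 fits (adjusted p = 0.0879 without Sham-HF replicate 4) and lost without normalization factors (adjusted p = 0.0650). It was the 1 call of 19 macrophage and monocyte genes. Ccr2, the receptor of recruited monocytes, had -1.23 and did not pass (edgeR adjusted p = 0.108). The list's median difference was 0.07, turning to -0.02 without normalization factors. Its summed level was 254 ± 47.4 CPM in Sham-LVH, 400.2 ± 44.1 in TAC-LVH, 174 ± 31.0 in Sham-HF and 286 ± 48.4 in TAC-HF (SD, n = 4), so the mean of each late group was below that of its early counterpart. Between the shams 6 of the 19 were called lower in Sham-HF, beside 2.19% of all genes tested. The part of the macrophage and monocyte level in the calls was not tested.

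Cpxm2 (ENSMUSG00000030862), a secreted carboxypeptidase-like protein, had 9.44, 7.05, 5.13 and 8.48 CPM in Sham-LVH, 7.01, 9.51, 11.3 and 11.3 in TAC-LVH, 12.1, 9.60, 12.1 and 9.91 in Sham-HF and 33.6, 30.9, 39.6 and 34.4 in TAC-HF. TAC-HF was above all other libraries, and the difference was 1.29 (SE 0.235; edgeR adjusted p = 0.0208), called in all 16 fits. Tmem143 (0.73) and Narf (0.70) were each called in all 16 fits (edgeR adjusted p = 0.0148 for both). Tmem143 fell at both times (-1.11 and -0.37), whereas Narf fell at 2 weeks (-0.40) and rose at 8 weeks (0.31), with -0.30 between the shams. Myoc, the secreted glycoprotein myocilin, had 1.29 (edgeR adjusted p = 0.0370), with -0.79 between the shams and 0.49 between the TAC groups, and kept its call in 5 fits (adjusted p = 0.0869 without TAC-LVH replicate 1). The provisionally named genes were 3425401B19Rik (0.96, edgeR adjusted p = 0.0148, all 16 fits) and Gm37829 (0.56, edgeR adjusted p = 0.0243, 11 fits, adjusted p = 0.0623 without TAC-LVH replicate 1). Without normalization factors Narf, Myoc and Gm37829 lost their calls (adjusted p = 0.0781, 0.0513 and 0.147).

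**Figure D3:**
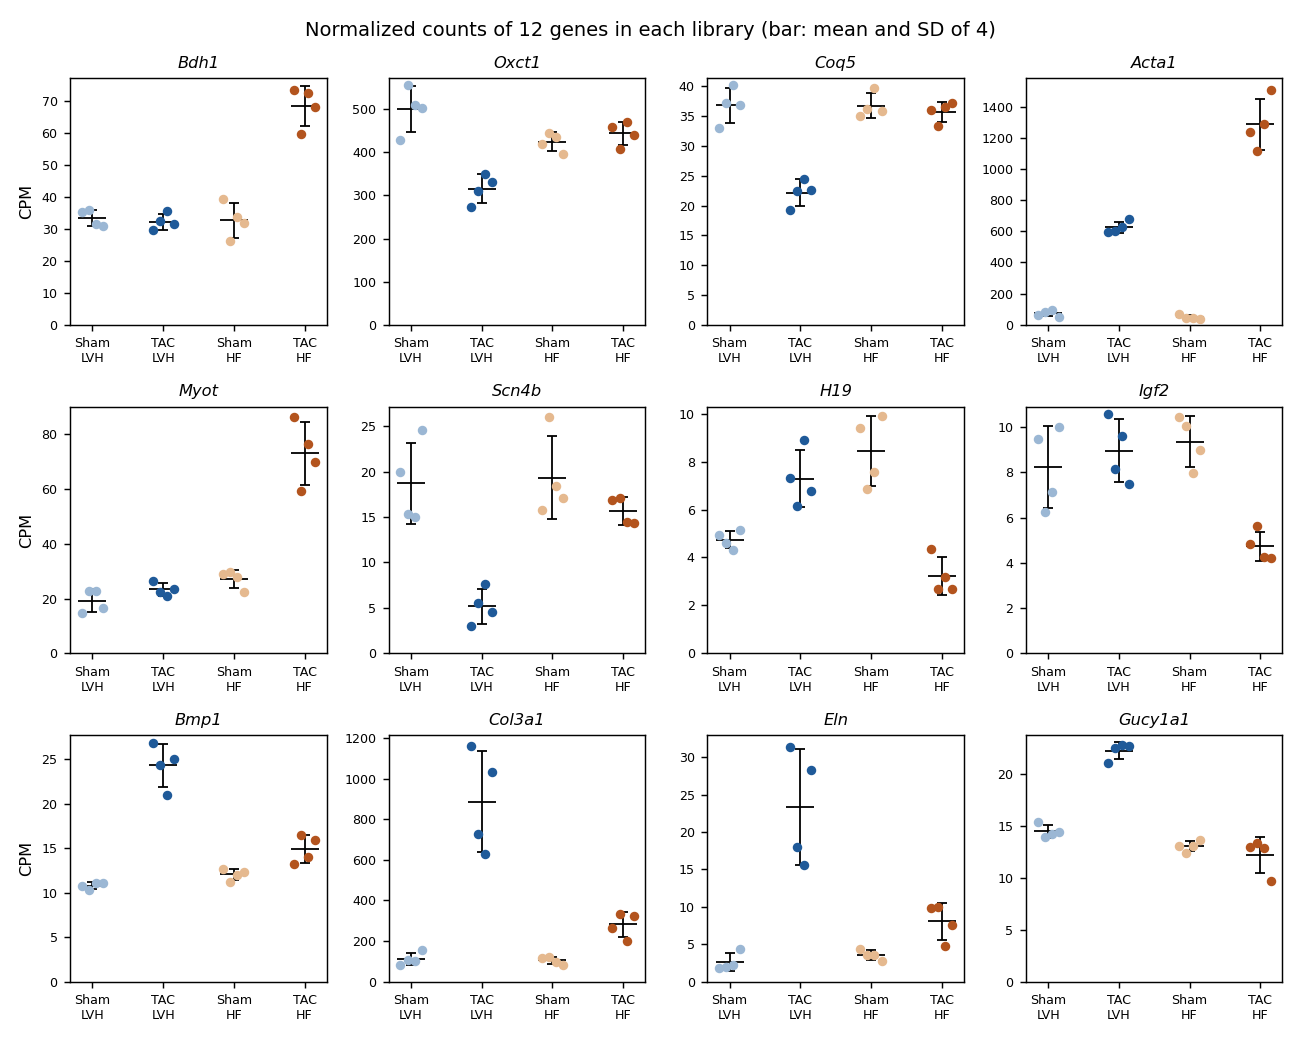
Scaled counts (CPM) of 12 genes in each of the 16 libraries, 4 points a group, with the mean and SD as bars and each axis starting at 0. By group mean, Bdh1, Acta1 and Myot are highest in TAC-HF, Oxct1, Coq5 and Scn4b are lowest in TAC-LVH, H19 and Igf2 are lowest in TAC-HF, and Bmp1, Col3a1, Eln and Gucy1a1 are highest in TAC-LVH.

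A difference of effects can lie between the TAC groups or between the shams. For the 135 higher genes the median difference was 0.51 between the TAC groups and -0.13 between the shams, and for the 61 lower genes -0.72 and 0.18 (later minus earlier, log2). Of the higher genes 113 were called between TAC-HF and TAC-LVH and 25 between the shams, and the sham part was the larger for 22. Of the lower genes these numbers were 53, 13 and 14. Over all genes, 20.0% were called between the TAC groups (10.8% higher and 9.18% lower in TAC-HF) and 5.86% between the shams (3.67% higher and 2.19% lower in Sham-HF). These calls share libraries with the difference that selected the genes and give it no separate support.

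**Figure D4:**
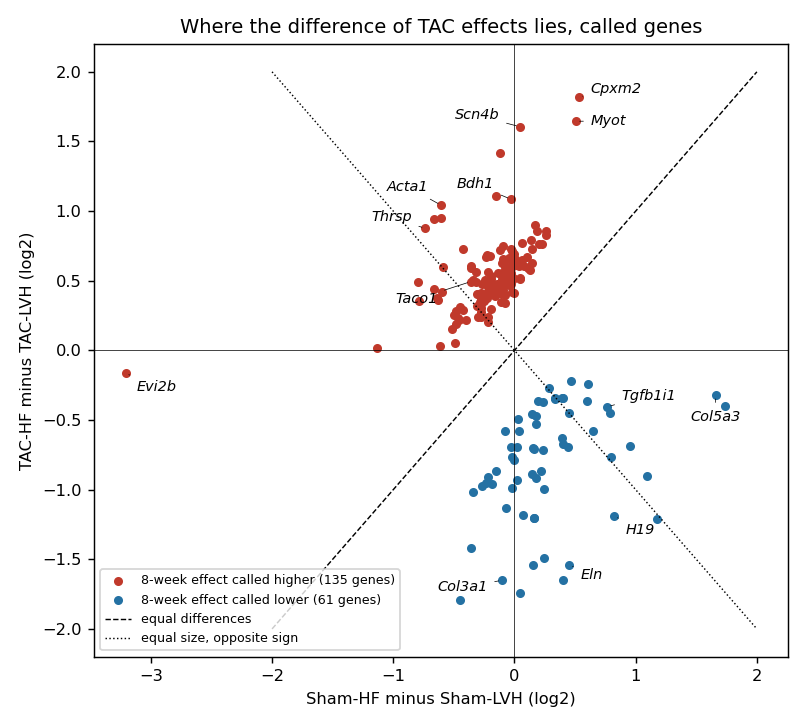
The 196 called genes by the difference between sham groups (horizontal, Sham-HF minus Sham-LVH) and between TAC groups (vertical, TAC-HF minus TAC-LVH), both log2. Most points lie nearer the vertical axis, where the difference lies between the TAC groups; Col5a3 and Evi2b lie far out along the sham axis.

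Immediate early and clock genes had calls between the shams. Of 24 immediate early genes, which respond within minutes to stimulation, 10 were called higher in Sham-HF than in Sham-LVH (median 0.80). Of 19 clock genes, 4 were called higher and 5 lower. Among all genes tested 3.67% were called higher and 2.19% lower in Sham-HF. Arntl, the core clock activator gene, had 0.672, 0.816, 0.233 and 1.56 CPM in Sham-LVH, 3.12, 1.45, 3.39 and 3.90 in TAC-LVH, 12.4, 7.89, 12.8 and 4.46 in Sham-HF and 4.47, 10.9, 3.47 and 7.40 in TAC-HF. Its sham groups did not overlap and differed by 3.51 (edgeR adjusted p = 0.00413), and its TAC groups overlapped. The difference of effects was -2.37 and did not pass (edgeR adjusted p = 0.109). Clock (-0.52, edgeR adjusted p = 0.0706), Ciart (1.45, edgeR adjusted p = 0.163), Fos (-1.59, edgeR adjusted p = 0.216) and Egr3 (-2.02, edgeR adjusted p = 0.162) did not pass either, each with shams that were called apart. No gene of either list was called in the difference. The median was 0.22 for clock genes, which ran from -2.37 to 1.45 in both directions, and -0.36 for immediate early genes, which ran from -2.2 to 0.75. Egr3 was near the floor, with at most 0.233 CPM in Sham-LVH. Time of collection is not in the labels, and its part in the other differences was not tested.

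The TAC effect on Dchs2, which the series title names, and on its relatives was not shown to differ between the cohorts. Dchs2 (ENSMUSG00000102692), an atypical cadherin gene, had 1.57, 0.874, 0.855 and 1.116 CPM in Sham-LVH, 5.41, 4.62, 5.32 and 4.78 in TAC-LVH, 1.218, 1.62, 1.42 and 1.00 in Sham-HF and 4.06, 4.56, 2.42 and 3.89 in TAC-HF. TAC exceeded sham without overlap in both cohorts, by 2.16 at 2 weeks and 1.49 at 8 weeks, and every TAC-LVH library exceeded every TAC-HF library. The difference was -0.68 (95% interval -1.31 to -0.05; edgeR adjusted p = 0.227). Its relatives Dchs1 (-0.30, -0.78 to 0.17; edgeR adjusted p = 0.493), Fat1 (-0.57, -0.97 to -0.18; edgeR adjusted p = 0.116) and Fat4 (-0.53, -0.86 to -0.21; edgeR adjusted p = 0.0781), a Dachsous receptor, did not pass either. All 8 tested Dachsous, Fat and Celsr genes had a negative difference (median -0.38), with none called. Among all genes tested 48.5% had a positive one. Yap1, the Hippo pathway effector gene, had 0.13 (-0.13 to 0.39; edgeR adjusted p = 0.616). Cebpb and Cited4, transcription regulators tied to exercise growth of the heart, had 1.36 (0.53 to 2.20; edgeR adjusted p = 0.0869) and -0.40 (-1.20 to 0.41; edgeR adjusted p = 0.606). In TAC-HF Cebpb stood at 17.4, 15.4, 16.5 and 21.0 CPM, above all TAC-LVH libraries at 6.21, 8.47, 4.94 and 4.28.

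The remaining process lists had no call. Their median differences were -0.19 for 23 Hippo pathway and Tead genes, -0.08 for 26 growth signalling and calcineurin genes, -0.15 for 28 cell cycle genes, 0.02 for 25 interferon response genes and 0.14 for 41 ribosomal protein genes. For 24 endoplasmic reticulum and heat shock genes the median was 0.15, for 20 glucocorticoid and fasting genes 0.49, for 23 adrenergic, natriuretic and angiotensin genes -0.14 and for 14 transport genes 0.22. Related genes outside these lists were called higher, among them Amot (0.88) of the Hippo pathway, the calcineurin regulator Rcan2 (0.53) and the chaperones Cryab (0.59) and Fkbp4 (0.71). They were chosen after their values were seen (edgeR adjusted p = 0.0264 to 0.0458). Their calls held in 10, 3, 3 and 6 of 16 fits, in that order, and ended without normalization factors (adjusted p = 0.0848 to 0.173). Among the other cell type lists, which had no call beyond Acta1 in the skeletal muscle list, the median differences were 0.05 for atrial cardiomyocytes, 0.14 for the conduction system, -0.23 for endothelium, -0.23 for smooth muscle and pericytes, -0.26 for MHC class II genes, 0.25 for neutrophils, 0.31 for red cells and -0.10 for Schwann cells and neurons. Without normalization factors the interferon median became -0.07 and the atrial median -0.07. In the T cell, B cell, mast cell, adipocyte, epicardial, skeletal muscle and lung and thymus lists at most 2 genes were expressed enough to be tested.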

How the data were processed

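RNA of whole hearts was measured by sequencing after ribosomal RNA depletion, with 4 libraries in each of 4 groups. The authors deposited 1 table of estimated counts per gene (43432 gene IDs, 42462 with a symbol, and 1 row naming no gene that held 0% of counts). Salmon, FastQC and build mm9 are named per the submitters' processing notes; the sources used here give neither their versions nor the annotation or strand setting. The deposited estimated counts are whole numbers and were used as they stand. Groups were taken from the labels, and the 8 other libraries of the series were not used in the main fit.

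Genes passing filterByExpr over the 16 libraries (14463) were normalized by TMM and fitted with edgeR 4.0.16's robust quasi-likelihood model in R 4.3.3 (limma 3.58.1) with 1 mean per group. Contrasts were tested with Benjamini-Hochberg adjustment over all genes tested, and a gene was called at adjusted p under 0.05. Effects are log2 fold changes, intervals are 95%, and CPM values use TMM-scaled library sizes. The procedure was tested on simulated data. Every simulated library followed the fitted model, so the simulation cannot address how far the calls depend on single libraries. Shares of counts were compared by an exact permutation test over 4900 arrangements. Library totals were 17998364 to 30353572 (median 22845050), TMM factors 0.803 to 1.39. The labels do not state that the libraries of a group came from separate animals, so p-values measure the spread between these libraries, which may be technical.

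The genes named were, per direction, the 10 with the smallest p and the 5 with the largest difference at a mean of at least 2 CPM, up to 2 provisionally named genes, up to 4 members of each list by p, and some genes named in advance; genes chosen after their values were seen are marked as such. The members and the 27 process and 18 cell type lists (858 symbols, 4 of them unmatched) were chosen with earlier results of these data known, and 5 further lists were added after values were seen. Alternatives were RLE size factors, no normalization factors, TMM without mitochondrially encoded genes, no filter, DESeq2 1.42.0, all 24 libraries, a replicate block and leaving out each library. Leaving out both libraries at the ends of the first component was chosen after seeing the data.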

Additional observations from a re-analysis of the deposited data

Results flagged for a closer look

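Among 84 genes described, 57 had a TAC effect that differed between the cohorts by the test of the difference itself (edgeR adjusted p under 0.05). Many of the 84 were named for being called or chosen after their values were seen, so this share follows from the choice. Of all 14463 genes tested, 1.36% were called. The differences below are log2, 8 weeks minus 2 weeks, and no explanation was weighed for them. Genes of ketone, coenzyme Q and mitochondrial function with a higher late effect were Bdh1 (1.113), Oxct1 (0.73), Coq2 (0.52), Coq5 (0.69), Coq6 (0.63), Coq9 (0.71), Coq10a (0.65), Taco1 (0.85), Pdhx (0.95), Dlat (0.55), Dlst (0.47) and Ndufa10 (0.59). Glucose, glycogen and lipid genes were Ugp2 (0.91), Pygm (0.54), Phka1 (0.60), Eno3 (0.63), Slc2a4 (0.58), Gpam (0.84), Gpd1 (1.189), Dgat2 (0.90) and Thrsp (1.61). Muscle and channel genes were Acta1 (1.65), Myot (1.136), Cmya5 (0.55), Smyd1 (0.58) and Scn4b (1.56). Others with a higher late effect were Narf (0.70), Tmem143 (0.73), Cpxm2 (1.29), Myoc (1.29), 3425401B19Rik (0.96) and Gm37829 (0.56).

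Lower late effects were seen for the imprinted genes H19 (-2.01) and Igf2 (-1.10). Matrix and protease genes with a lower late effect were Bmp1 (-0.86), Col3a1 (-1.55), Col5a3 (-1.98), Col6a1 (-0.86), Col18a1 (-1.09), Eln (-1.99), Mmp2 (-0.77), Sparc (-0.68), Adamts5 (-0.66), Adamts12 (-1.78), Adamts15 (-0.96), Lamb1 (-0.71) and Lama4 (-0.62). The remaining ones were Pitpnm1 (-0.90), Gucy1a1 (-0.72), Gucy1b1 (-0.72), Arhgap18 (-1.37), Arhgap28 (-1.74), Cxcr4 (-1.22), Marcks (-0.69), Pi15 (-1.69), Tgfb1i1 (-1.17) and Ms4a7 (-1.34).

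In 19 of 336 gene and group combinations 1 library stood apart from the other 3 by Dixon's test, where chance alone gives about 1 in 20. High libraries, in CPM, were Sham-LVH replicate 4 for Col5a3 (10.2), Eln (4.39), Sparc (135.6) and Adamts12 (3.13), Sham-LVH replicate 1 for Fat4 (35.0) and Cited4 (4.37), Sham-LVH replicate 2 for Egr3 (0.233) and Sham-LVH replicate 3 for Slc2a4 (149). Further high libraries were Sham-HF replicate 2 for Coq6 (18.0), Sham-HF replicate 4 for Ciart (2.26), Sham-HF replicate 1 for Ankrd1 (264), TAC-LVH replicate 3 for Arhgap28 (4.17) and TAC-LVH replicate 1 for Ccr2 (13.8). Low libraries were Sham-HF replicate 1 for Coq10a (46.4) and Dgat2 (86.3), Sham-HF replicate 4 for Col6a1 (28.9), TAC-HF replicate 3 for Phka1 (32.4) and 3425401B19Rik (78.0) and TAC-HF replicate 4 for Gucy1a1 (9.69).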

How the results depend on the processing

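The number of genes whose TAC effect differed depended on the settings. Against 135 higher and 61 lower, the counts were 111 and 52 with RLE size factors, 136 and 63 with TMM without mitochondrially encoded genes, 175 and 71 with no filter, 106 and 54 with all 24 libraries, 14 and 16 without normalization factors, 416 and 205 with DESeq2, 329 and 132 with a replicate block, and 1 and 1 without both libraries at the ends of the first component (TAC-LVH replicate 1 and Sham-HF replicate 4), a setting chosen after seeing the data. Leaving out 1 library gave 16 to 437 higher and 6 to 217 lower genes, the lowest without Sham-LVH replicate 2 and the highest without Sham-LVH replicate 1. The cause was not tested. All 196 genes kept their sign in these 16 fits, without normalization factors and without both end libraries. Since they were selected in the same libraries, this gives no separate support. DESeq2 called 191 of them and gave the rest no adjusted p. Without normalization factors the TAC effect was called in 8144 genes (2 weeks) and 6578 genes (8 weeks), and the shams differed in 511, against 5001, 4195 and 848. Leaving out 1 library gave 4216 to 5085, 3147 to 4362 and 322 to 1287 for these, and 1988 to 3054 between the TAC groups against 2894.

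Replicate numbers did not pair the libraries: of 24 same-numbered pairs, 5 had deviations correlated over 0.1 (range -0.17 to 0.20), and in 7 of 24 comparisons of a library with another group its best match had its own number. The replicate block is therefore given as counts alone. Leaving out 1 library moved Nppb from -0.80 to 0.31 (edgeR adjusted p = 0.752 without Sham-HF replicate 1) and Gdf15 from -0.40 (edgeR adjusted p = 0.830 without Sham-LVH replicate 1) to 1.209. The share of mitochondrially encoded genes, -0.89 points in all libraries, ranged from -2.11 to 0.477 points when 1 library was left out (0.477 without TAC-LVH replicate 3 and 0.0806 without Sham-HF replicate 4). The haemoglobin share, 0.00187 points, ranged from -0.00638 to 0.0176 and was -0.001545 without Sham-LVH replicate 3, -0.002208 without Sham-LVH replicate 4, -0.002099 without TAC-LVH replicate 2, -0.001669 without TAC-LVH replicate 3, -0.00638 without TAC-LVH replicate 4, -8.199e-05 without Sham-HF replicate 2 and -3.235e-05 without TAC-HF replicate 4. The 7SL RNA share ranged from 0.118 to 0.660 points and the difference in total counts from 1454000 to 5248000. None of the 4 passed (exact permutation adjusted p = 0.953 each).

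With 4 libraries a group a difference of 2 effects carries the spread of all 4 groups, and 2764 genes had an unadjusted p under 0.05 where 196 passed the adjustment, so genes below the threshold were not shown to be alike. Mitochondrially encoded transcripts took 50.7% to 67.0% of counts, which left 6560537 to 12932067 counts for all other genes. Genes under 2 CPM, 4 of the higher and 10 of the lower, rest on few counts.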

Other observations

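Several called genes outside the fixed lists encode proteins that make or fold mitochondrial proteins. They were chosen after their values were seen and carry no test as a group. Mitochondrial translation genes with a higher late effect were Mrps23 (0.60, log2), Mrps18b (0.73) and Mrpl44 (0.68) of the mitochondrial ribosome, the elongation factor Gfm1 (0.54) and the RNA-binding proteins Ptcd3 (0.69) and Fastkd2 (0.62). Chaperone and import genes were Hspa9 (0.53), Grpel1 (0.61), Dnaja3 (0.61), Clpb (0.49) and Pmpcb (0.55). Mrps23 had 27.6, 30.8, 33.4 and 28.7 CPM in Sham-LVH, 22.3, 23.7, 24.0 and 25.9 in TAC-LVH, 25.7, 24.4, 25.5 and 23.9 in Sham-HF and 31.4, 27.5, 31.1 and 30.7 in TAC-HF. It was the only one of these 11 called in every fit that left out 1 library (edgeR adjusted p = 0.0183), and the others kept their calls in 3 to 14 of 16 fits, with adjusted p up to 0.114 without TAC-LVH replicate 1 for Mrps18b. Without normalization factors Mrps23 missed the threshold (adjusted p = 0.134). Proteasome subunit genes Psmd1 (0.42), Psmd2 (0.52) and Psmc1 (0.55) were also called, as were the antioxidant enzyme genes Cat (0.57) and Prdx6 (0.75), all chosen after their values were seen. The proteasome calls held in 3 of 16 fits each (adjusted p up to 0.114 without TAC-LVH replicate 1 for Psmc1), Cat in 15 (adjusted p = 0.0549 without Sham-LVH replicate 2) and Prdx6 in 9 (adjusted p = 0.0694 without TAC-LVH replicate 1), and all 5 ended without normalization factors (adjusted p = 0.0766 to 0.291).

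Evi2b (3.05) and Evi2 (-1.56), 2 called genes on chromosome 11 with related names, had differences of opposite sign. Both were chosen after their values were seen. Evi2b kept its call in 4 of 16 fits (adjusted p = 0.0867 without Sham-HF replicate 4), with differences from 2.60 to 4.94, and Evi2 in 3 (adjusted p = 0.111 without TAC-LVH replicate 1), and both ended without normalization factors (adjusted p = 0.0760 for each). Evi2b had 0.859, 0.816, 0.544 and 0.856 CPM in Sham-LVH, 1.52, 0.682, 1.234 and 1.505 in TAC-LVH, 0, 0, 0.264 and 0.0627 in Sham-HF and 1.32, 0.814, 1.54 and 0.823 in TAC-HF. Evi2 had 0.635, 0.524, 0.971 and 0.744, 1.63, 1.41, 1.00 and 0.945, 1.51, 1.299, 1.05 and 1.192 and 0.558, 0.855, 0.967 and 0.523 in the same groups. Both lay under 2 CPM, 2 Sham-HF libraries held no Evi2b count, so its fitted difference depends on the prior count, and the way reads were split between them is not known.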
